A study of Sus scrofa domesticus with 11 samples.

Results

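Iron handling genes of the liver were followed in preterm Yorkshire piglets fed through a vein (parenteral nutrition). The set comprised HAMP, BMP6, TFR2, TFRC, TF, SLC40A1, FTL, FTH1, CP and HPX, taken by gene symbol. No measured value entered that rule, but the list was drawn up with earlier results of these data known. Of these 10 symbols, 9 were present as gene names among the 22029 genes of the deposited table, each in 1 row. FTH1 was not a gene name in the table. A row without a name is described there as ferritin heavy chain 1, and it is reported beside the set as the FTH1 row but not counted in it. The libraries were made from frozen liver taken at day of life 15. SEFA-6179, for which the labels give a code name alone, was given at 48 mg/kg to the animals of 5 libraries. MCT, the vehicle control, was given at an equal volume of 3 ml/kg to those of 6 libraries. Birth before term and parenteral nutrition were common to both groups. The sources used here do not give sex, litter, batch or iron supply. The Y-linked gene EIF1AY was detected in 2 of 5 SEFA-6179 libraries, at 19.9 and 20.8 CPM (counts scaled to the library's size), and in 4 of 6 MCT libraries, at 19.2 to 24.5 CPM, and was at 0 counts in the others.

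Mammals have no regulated route for excreting iron, so body iron is set by how much enters the plasma. The liver makes hepcidin, the peptide hormone encoded by HAMP, which binds ferroportin, the iron exporter encoded by SLC40A1, and causes its removal from the cell surface. Hepatocytes raise hepcidin when transferrin is rich in iron or when liver endothelial cells release bone morphogenetic protein 6, and also during inflammation through interleukin 6 and STAT3. Within the cell, iron regulatory proteins bind the mRNAs of ferritin, ferroportin and transferrin receptor 1. They block translation of ferritin and ferroportin and stabilise the mRNA of transferrin receptor 1 when iron is scarce. mRNA levels therefore report only part of this system: a ferritin mRNA can be constant while ferritin protein is not.

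Total counts per library were 16821201 to 19215097 in SEFA-6179 livers, against 15974977 to 23416071 in MCT livers. Hepatocyte markers were abundant in every library, with a summed level of 61433 to 171325 CPM in SEFA-6179 livers and of 59773 to 153851 CPM in MCT livers, and all 9 were detected. A pair of libraries stood apart. MCT replicate 5 lay at 83.1 on the first principal component, which held 19.6% of the variance, against at most -3.0 in the other MCT libraries. SEFA-6179 replicate 4 had a summed level of 8 Kupffer cell and macrophage markers of 51.4 CPM, against 821 to 1799 CPM in the other SEFA-6179 libraries. Values without this pair are given for every member. In bulk tissue, fewer cells of a type and less RNA per cell cannot be told apart. Nothing in the labels says that libraries were paired or technical repeats, and each was taken as 1 animal.

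No iron handling gene passed the test between SEFA-6179 and MCT livers. The largest log2 fold changes were those of CP (0.67), HAMP (0.50) and TF (-0.37). By edgeR's quasi-likelihood test on the deposited counts with Benjamini-Hochberg adjustment over 13671 genes, 0 of the 9 members passed the threshold of 0.05, where 0.219% of all tested genes did. DESeq2 also called 0 of the 9, and 2.06% of the genes for which it gave an adjusted p. At an unadjusted p below 0.05 the count was again 0 of 9 by edgeR, where 10.8% of all tested genes lay, and 1 of 9, CP, by DESeq2, where 12.0% lay. All 9 members passed the filter on low counts. Log2 fold changes were above 0 in 5 members and below 0 in 4, against 49.8% of all tested genes above 0. Their median was 0.25, against -0.002 over all tested genes. In none of the members did the SEFA-6179 libraries lie wholly above or below the MCT libraries, a pattern that 1.49% of all tested genes showed. The authors' deposited table, from DESeq2 by their notes, held 0 of the 9 with an adjusted p below 0.05, against 255 of its 22029 genes.

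**Figure D1:**
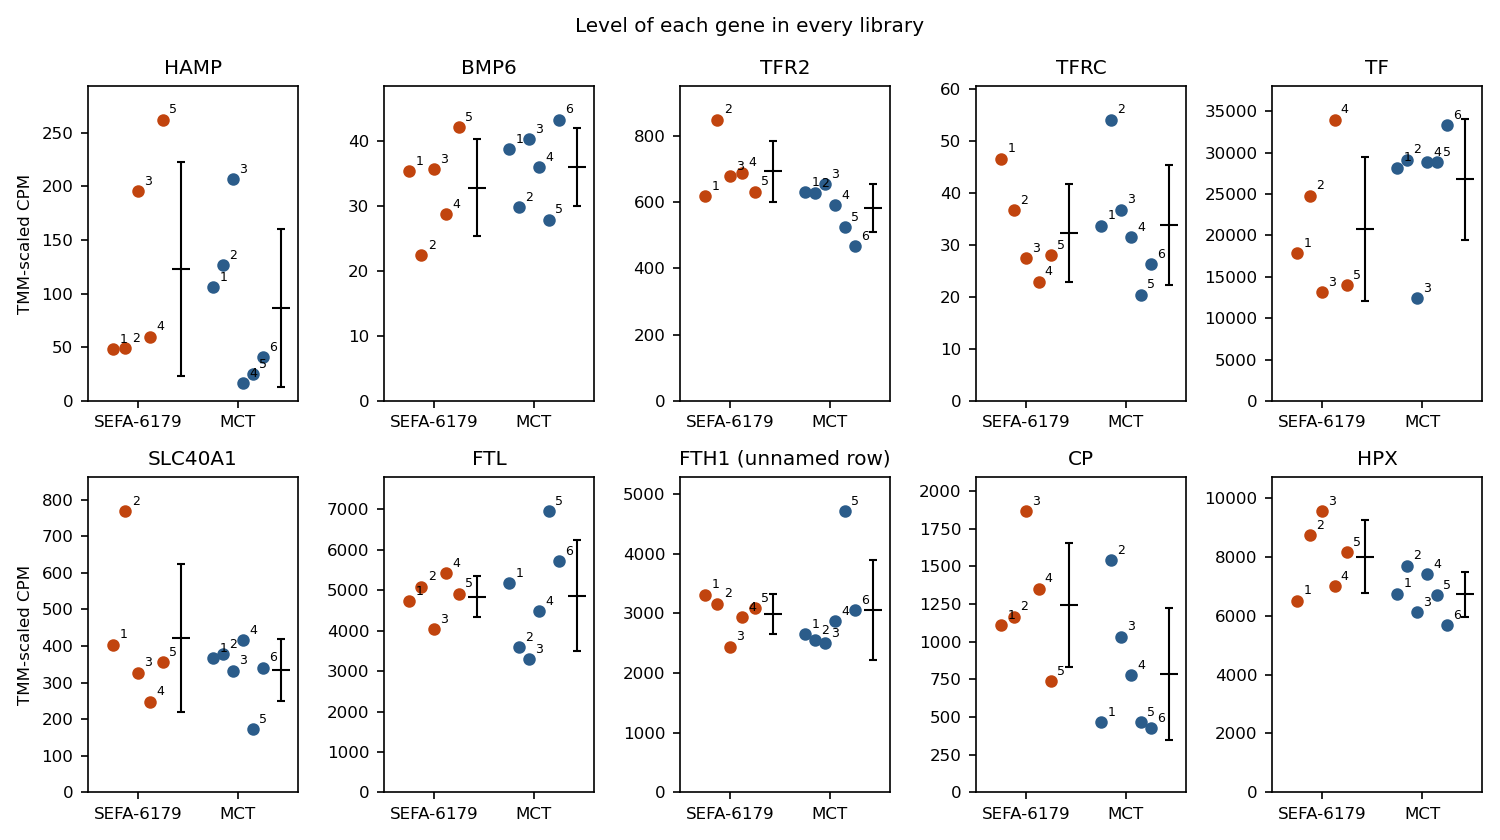
TMM-scaled CPM of each gene in every library, with SEFA-6179 (orange) left of MCT (blue). Numbers are replicates, and the black mark and bar are the mean and SD over 5 SEFA-6179 and 6 MCT libraries. The groups overlap in all 10 panels, and HAMP spans 16.6 to 262 CPM.

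HAMP, on chromosome 6 from 44784159 to 44787307 in the table's coordinates, was the most variable of the iron genes. It was at 48.0, 49.4, 196, 60.0 and 262 CPM in SEFA-6179 replicates 1 to 5. In MCT replicates 1 to 6 it was at 106, 126, 207, 16.6, 24.7 and 41.1 CPM. High and low livers were thus present in both groups: SEFA-6179 replicates 3 and 5 and MCT replicate 3 held the most hepcidin mRNA, and MCT replicates 4 and 5 the least. The highest library exceeded the lowest 15.8-fold. HAMP averaged 123 ± 99.6 CPM in SEFA-6179 livers (SD, n = 5) and 86.9 ± 73.7 CPM in MCT livers (SD, n = 6). The log2 fold change was 0.50 ± 0.71 (SE), with an edgeR adjusted p of 0.852 and a 95% interval from -1.06 to 2.07. Single animals moved it: it was 0.02 when SEFA-6179 replicate 5 was left out and 0.96 when MCT replicate 3 was. It was 0.49 ± 0.77 without the pair that stood apart and 0.19 ± 0.86 with the level of EIF1AY in the model. The SD of log2 CPM around the group means was 1.33, at the 98.2th percentile of all tested genes, whose median SD was 0.37.

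BMP6 (chromosome 7, 5058817 to 5211316), the ligand from liver endothelium that drives hepcidin, had a smaller within-group SD, 0.30. Its level was 35.3, 22.4, 35.6, 28.7 and 42.0 CPM in SEFA-6179 replicates 1 to 5, and 38.7, 29.8, 40.2, 35.9, 27.9 and 43.2 CPM in MCT replicates 1 to 6. SEFA-6179 replicate 2 lay below all MCT libraries and the other SEFA-6179 libraries lay within their range. BMP6 differed by a log2 fold change of -0.13 ± 0.17 (SE; edgeR adjusted p = 0.833), with a 95% interval from -0.50 to 0.23. It was -0.02 when SEFA-6179 replicate 2 was left out, -0.24 when SEFA-6179 replicate 5 was, and -0.14 ± 0.18 without the pair that stood apart. BMP6 overlaps TXNDC5 on the opposite strand, which had a mean count of 2291. The sources used here do not state whether counting used strand, so reads of this pair of genes may not be separated.

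TFR2 (chromosome 3, 8539318 to 8578884), transferrin receptor 2, is a hepatocyte sensor of iron-loaded transferrin and acts upstream of hepcidin. It was among the steadiest genes, with a within-group SD of 0.19 on the log2 scale (7.9th percentile). SEFA-6179 replicates 1 to 5 had 618, 848, 677, 688 and 631 CPM, and MCT replicates 1 to 6 had 630, 626, 654, 591, 524 and 466 CPM. All 5 SEFA-6179 libraries lay above the MCT median of 608 CPM and 3 lay above all MCT libraries. TFR2 had a log2 fold change of 0.25 ± 0.16 (SE; edgeR adjusted p = 0.593), with a 95% interval from -0.08 to 0.59, and one of 0.23 ± 0.18 without the pair that stood apart.

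TFRC (chromosome 13, 133970594 to 134000278) encodes transferrin receptor 1, through which most cells take up transferrin iron. Its level was 46.6, 36.6, 27.4, 22.9 and 28.1 CPM in SEFA-6179 replicates 1 to 5, and 33.7, 54.1, 36.8, 31.6, 20.4 and 26.3 CPM in MCT replicates 1 to 6. The groups overlapped throughout, and the lowest library of each was the one that stood apart. Its log2 fold change was -0.06 ± 0.24 (SE; edgeR adjusted p = 0.949) and -0.07 ± 0.22 without that pair of libraries. TFRC is also abundant in red cell precursors, which a preterm liver can still hold. Of 10 erythroid markers 9 were in the table. Their summed level was 231 to 506 CPM in SEFA-6179 livers and 110 to 439 CPM in MCT livers, most of it from the globin gene HBB, at 337 ± 103 CPM in SEFA-6179 livers and 201 ± 108 CPM in MCT livers (SD). HBB had a log2 fold change of 0.74 ± 0.33 (SE; edgeR adjusted p = 0.440). The precursor genes ALAS2 and AHSP averaged 16.1 and 3.51 CPM in SEFA-6179 livers and 18.8 and 4.76 CPM in MCT livers, while KLF1 and HBE1 were at 0 counts in some libraries. Across the 11 libraries the summed erythroid level and TFRC had r = -0.28 (deviations from the group means), and -0.52 without the pair. Of 6 erythroid markers tested 0 passed and 1 lay above 0 (median -0.32), and their part in the TFRC level was not tested.

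TF (chromosome 13, 74930655 to 74970599) encodes transferrin, the plasma carrier of iron. SEFA-6179 replicates 1 to 5 had 17867, 24808, 13188, 33968 and 13949 CPM. MCT replicates 1 to 6 had 28184, 29163, 12392, 28806, 28860 and 33335 CPM. In the MCT group 5 of 6 libraries lay close together, between 28184 and 33335 CPM, and replicate 3 was far below them. With SEFA-6179 the libraries were spread from 13188 to 33968 CPM, and only replicate 4 lay above the MCT median. The log2 fold change was -0.37 ± 0.31 (SE; edgeR adjusted p = 0.716), with a 95% interval from -1.02 to 0.29, and -0.59 ± 0.33 (adjusted p = 0.551) without the pair of libraries that stood apart. A neighbouring unnamed row on chromosome 13, from 74862542 to 74908124, is also described as transferrin and had a mean count of 9793, against 452704 for TF. The sources used here do not say how reads shared by such near copies were counted.

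SLC40A1 (chromosome 15, 94140725 to 94168210), the gene of ferroportin, is expressed in Kupffer cells, which return iron from old red cells to plasma, as well as in hepatocytes. It was at 404, 769, 327, 248 and 357 CPM in SEFA-6179 replicates 1 to 5, and at 367, 377, 333, 416, 174 and 341 CPM in MCT replicates 1 to 6. A single library, SEFA-6179 replicate 2, lay above all MCT libraries. The log2 fold change was 0.33 ± 0.28 (SE; edgeR adjusted p = 0.723) with all libraries and 0.0011 without that library. The lowest value in each group came from the library that stood apart. Those same libraries had the lowest summed Kupffer cell and macrophage markers of their groups, 51.4 CPM (SEFA-6179 replicate 4) and 169 CPM (MCT replicate 5). SEFA-6179 replicate 4 was set apart by that sum itself, so its low rank there was fixed by the choice. Elsewhere that sum was 821 to 1799 CPM in SEFA-6179 livers and 365 to 1061 CPM in MCT livers. All 8 markers in the table were detected in every library. Over the 11 libraries the sum had r = 0.57 and rho = 0.20 with SLC40A1, and without the pair r was -0.31, so the positive r rested on those libraries. SEFA-6179 replicate 3, with the highest sum, 1799 CPM, had SLC40A1 at only 327 CPM. The part of these markers in the SLC40A1 level was not tested. Without both libraries the log2 fold change of SLC40A1 was 0.34 ± 0.24 (adjusted p = 0.663).

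FTL (chromosome 6, 54227164 to 54232752), the light chain of ferritin, was at 4733, 5089, 4046, 5431 and 4918 CPM in SEFA-6179 replicates 1 to 5. It was at 5175, 3601, 3296, 4477, 6957 and 5724 CPM in MCT replicates 1 to 6. The SEFA-6179 libraries lay inside the MCT range, with an SD of 0.16 on the log2 scale, against 0.41 with MCT. FTL had a log2 fold change of -0.01 ± 0.22 (SE; edgeR adjusted p = 0.994), with a 95% interval from -0.47 to 0.46, and 0.08 ± 0.23 without the pair that stood apart. The row described as ferritin heavy chain 1, the subunit with ferroxidase activity, lies on chromosome 2 from 9535148 to 9537977. Its values were 3317, 3166, 2443, 2938 and 3092 CPM in SEFA-6179 replicates 1 to 5, and 2651, 2558, 2505, 2874, 4714 and 3062 CPM in MCT replicates 1 to 6. MCT replicate 5 was the highest library for both ferritin chains. The log2 fold change of the heavy chain row was -0.03 ± 0.20 (adjusted p = 0.975), and 0.14 ± 0.20 without the pair. Per length, the ratio of the heavy to the light chain was 0.933 to 1.21 with SEFA-6179 and 0.884 to 1.31 with MCT, on the authors' FPKM scale. That ratio rests on the table's gene lengths, 866 bases for the heavy chain row and 1494 for FTL. By counts FTL was higher, with a mean of 90094 against 56373 for the heavy chain row. Ferritin genes have processed copies in mammalian genomes, and whether reads were shared with such copies was not tested. FTL also overlaps DHDH on the same strand at its start, which had a mean count of 1817.

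CP (chromosome 13, 89396685 to 89463538) encodes ceruloplasmin, the copper-containing plasma oxidase that lets iron leave cells and bind transferrin, and it is also an acute phase protein. Its log2 fold change of 0.67 ± 0.35 (SE) was the largest of the set, and it did not pass (edgeR adjusted p = 0.512). SEFA-6179 replicates 1 to 5 had 1109, 1166, 1865, 1352 and 739 CPM, and MCT replicates 1 to 6 had 466, 1543, 1034, 777, 467 and 425 CPM. All 5 SEFA-6179 libraries lay above the MCT median of 622 CPM, yet MCT replicate 2 lay above 4 of them. The averages were 1246 ± 411 CPM in SEFA-6179 livers (SD, n = 5) and 785 ± 440 CPM in MCT livers (SD, n = 6), and the 95% interval of the log2 fold change ran from -0.08 to 1.41. The unadjusted p was 0.0750 by edgeR and 0.0489 by DESeq2. CP also overlaps the oppositely oriented HPS3 (mean count 361). Over the alternative fits the log2 fold change was lowest when SEFA-6179 replicate 3 was left out (0.47) and highest when MCT replicate 2 was (0.98), and the lowest adjusted p was 0.300. Without the pair of libraries that stood apart it was 0.52 ± 0.39.

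HPX (chromosome 9, 3288172 to 3297047) encodes hemopexin, which captures free heme in plasma and carries it to the liver. It was at 6511, 8738, 9545, 7013 and 8163 CPM in SEFA-6179 replicates 1 to 5, and at 6748, 7702, 6114, 7404, 6709 and 5670 CPM in MCT replicates 1 to 6. SEFA-6179 replicates 2, 3 and 5 lay above all MCT libraries, and the other SEFA-6179 libraries lay within the MCT range. For HPX the log2 fold change was 0.25 ± 0.18 (SE; edgeR adjusted p = 0.667), with a 95% interval from -0.14 to 0.64, and 0.30 ± 0.22 without the pair that stood apart. Its within-group SD of 0.19 placed it at the 9.9th percentile, beside TFR2.

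Acute phase genes were set beside CP and HPX. The list held 11 genes, of which 7 were in the table: CRP, PIGR, HP, FGB, LBP, FGG and ITIH4. Their summed level was 30320 to 92210 CPM in SEFA-6179 livers and 25002 to 45023 CPM in MCT livers, with SEFA-6179 replicate 3 and MCT replicate 2 at the top of their groups. The same libraries were the highest of their groups for CP. FGB, FGG and HP carried most of that sum, averaging 17508, 12601 and 13150 CPM in SEFA-6179 livers and 12279, 9495 and 8369 CPM in MCT livers. FGB and FGG overlap on opposite strands (mean counts 278560 and 208639), and the counting's strand setting is unknown. FGG also overlaps an unnamed row on its own strand (mean count 228766). Over deviations from the group means in the 11 libraries, the summed level had r = 0.71 and Spearman rho = 0.82 with CP, and r = 0.75 and rho = 0.74 with HPX. Taken singly, the 7 genes had r from 0.31 (HP) to 0.78 (LBP) with CP and from 0.32 (CRP) to 0.80 (FGG) with HPX. Without the pair that stood apart r of the sum was 0.76 with CP and 0.77 with HPX. With HAMP, itself an inflammation-responsive gene, r was 0.30. HPX also had r = 0.78 with the total count of the library. None of the 7 acute phase genes passed by edgeR, and 6 lay above 0. CRP, at 1708 ± 1705 CPM in SEFA-6179 livers and 447 ± 333 CPM in MCT livers (SD), had the smallest p (log2 fold change 1.93 ± 0.65 SE, edgeR adjusted p = 0.300). PIGR, which encodes the polymeric immunoglobulin receptor, was next by p and the 1 gene of the list below 0. It was at 9.25 ± 6.17 CPM in SEFA-6179 livers and 24.6 ± 11.3 CPM in MCT livers (log2 fold change -1.41 ± 0.54, adjusted p = 0.356). PIGR made up at most 0.0513% of the summed level in SEFA-6179 livers and 0.105% in MCT livers. The part of the acute phase genes in the levels of CP and HPX was not tested.

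**Figure D2:**
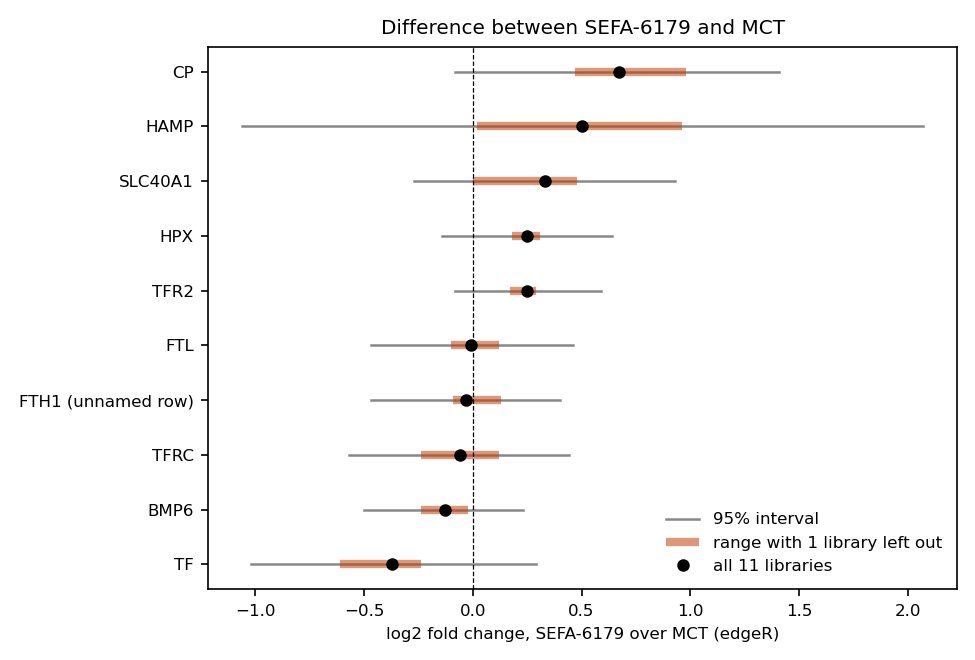
Log2 fold change of each gene, SEFA-6179 over MCT, from edgeR. Points use all 11 libraries, thin lines are 95% intervals from the standard error, and thick lines span the values with 1 library left out; every interval includes 0, and HAMP has the widest, from -1.06 to 2.07.

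Compared per length, on the FPKM scale deposited by the authors, the iron genes spanned a wide range. TF was highest, with a median over the 11 libraries of 6983 FPKM (range 3022 to 8323), which made it the 8th most abundant gene of the table. HPX followed at 4054 FPKM (3271 to 5520), the FTH1 row at 3349 (2787 to 5444) and FTL at 3257 (2168 to 4657). These plasma proteins and ferritin chains were not cleanly ordered among themselves: TF exceeded HPX in 8 of 11 libraries, HPX the FTH1 row in 8, and the FTH1 row FTL in 8. FTL exceeded CP in all 11.

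The regulators and transporters were far lower. CP had a median of 147 FPKM (60.4 to 266) and TFR2 one of 110 FPKM (81.2 to 147), and CP exceeded TFR2 in only 7 of 11 libraries. SLC40A1 was at 48.8 FPKM (24.1 to 104) and exceeded HAMP, at 28.1 FPKM (7.81 to 123), in 7. BMP6 was at 8.40 FPKM (5.25 to 10.2) and TFRC, the lowest, at 5.53 FPKM (3.62 to 9.45), and HAMP exceeded BMP6 in 10 libraries and BMP6 exceeded TFRC in 9. The liver thus held far more mRNA of the hepatocyte receptor than of the general one: TFR2 exceeded TFRC 13.2-fold to 30.0-fold with SEFA-6179 and 11.5-fold to 25.6-fold with MCT. FPKM divides by the table's gene lengths, so the order of the genes rests on them. They are 2107 bases for HAMP, 1494 for FTL and 866 for the FTH1 row. Together the 9 members took 2.71% to 4.49% of all counts with SEFA-6179 and 2.94% to 4.93% with MCT, with TF the largest contributor in every library.

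**Figure D3:**
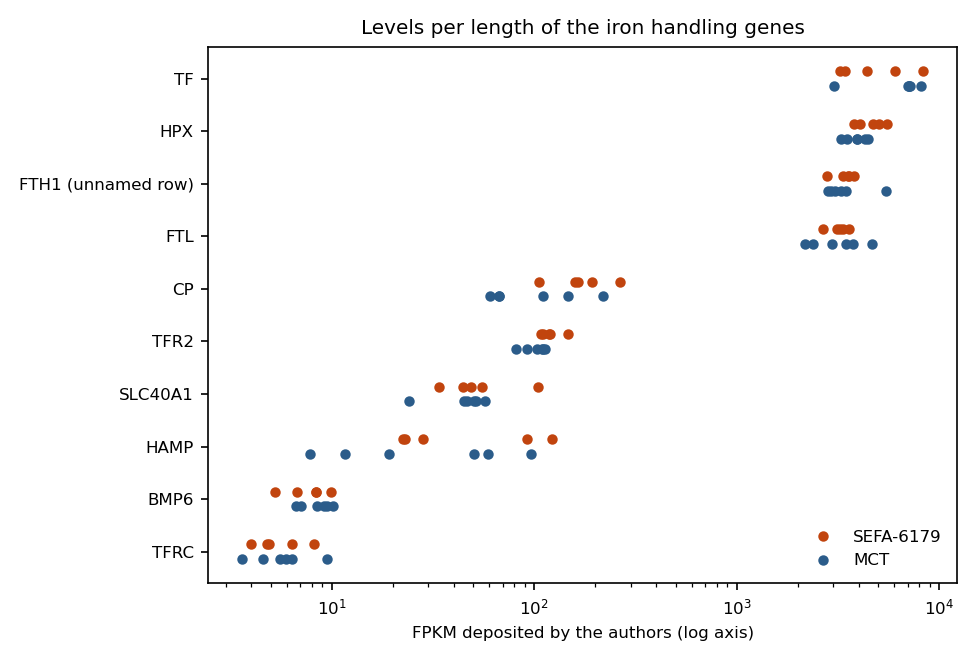
Levels per length of the iron handling genes, in FPKM as deposited by the authors, on a log axis. Each point is a library, with SEFA-6179 (orange) above MCT (blue) in each row; genes run from TF, median 6983 FPKM, to TFRC, median 5.53 FPKM.

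Some pairs of members varied together, or against each other, from liver to liver. Correlations are given as descriptions over the 11 libraries, on log2 CPM after the group means were subtracted. They share libraries and scaling. The share of all gene pairs with such r was not computed, so the counts of pairs do not set the members apart from other genes. Of 36 pairs of members, 2 had r above 0.6 (TF with FTL, TFRC with SLC40A1) and 4 had r below -0.6 (HAMP with TF, HAMP with FTL, TFRC with FTL, FTL with CP). Both ferritin chains went together (r = 0.81, rho = 0.66), and without the 2 libraries farthest from the median of FTL r was 0.59 (0.70 without the pair that stood apart). FTL also went with TF (r = 0.61, rho = 0.62; 0.47 without the 2 farthest in FTL and 0.21 without those in TF), and without the pair that stood apart r was 0.70. Both went with the summed hepatocyte markers, FTL at r = 0.72 and TF at r = 0.76. That sum was mostly ALB, the albumin gene, at 68.6% to 82.2% of it in SEFA-6179 livers and 55.5% to 78.6% in MCT livers. Taken singly, the 9 hepatocyte markers had r from -0.47 to 0.78 with TF (7 above 0) and from -0.75 to 0.74 with FTL (6 above 0). With the summed Kupffer cell and macrophage markers TF had r = -0.71 (rho = -0.73) and FTL r = -0.58 (rho = -0.70). The part of either list of markers was not tested. FTL ran against CP (r = -0.80, rho = -0.71; -0.84 without the 2 farthest in FTL and -0.88 without the pair that stood apart).

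TFRC ran against FTL (r = -0.67, rho = -0.65) and with SLC40A1 (r = 0.65, rho = 0.69; 0.54 without the 2 farthest in TFRC). For TFRC and FTL r was -0.34 without the 2 libraries farthest from the median of TFRC, -0.58 without those farthest in FTL, and -0.75 to -0.52 with 1 library left out. Without the pair that stood apart r was -0.45 for TFRC and FTL and 0.28 for TFRC and SLC40A1. MCT replicate 5 had the most FTL and the least TFRC mRNA, and MCT replicate 2 the most TFRC and little FTL.

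HAMP ran against TF (r = -0.66, rho = -0.45; -0.67 without the 2 farthest in HAMP and -0.42 without those in TF). It also ran against FTL (r = -0.61, rho = -0.48; -0.82 without the 2 farthest in HAMP and -0.36 without those in FTL). Without the pair that stood apart r was -0.69 with TF and -0.51 with FTL. The 3 livers with the most HAMP, SEFA-6179 replicates 3 and 5 and MCT replicate 3, at 196, 262 and 207 CPM, were also the 3 with the least TF, at 13188, 13949 and 12392 CPM. In the other 8 livers TF was between 17867 and 33968 CPM. Among the 3 livers high in HAMP, SEFA-6179 replicate 3 and MCT replicate 3 also had the lowest summed hepatocyte markers of their groups, at 61433 and 59773 CPM, whereas SEFA-6179 replicate 5 was at 142304 CPM. The single markers did not follow HAMP in 1 direction: ALB, most of that sum, had r = -0.54 with HAMP, while CPS1, a urea cycle gene, had r = 0.68 and TAT r = 0.50. The other 6 were between -0.34 and -0.02. The part of those markers was not tested.

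**Figure D4:**
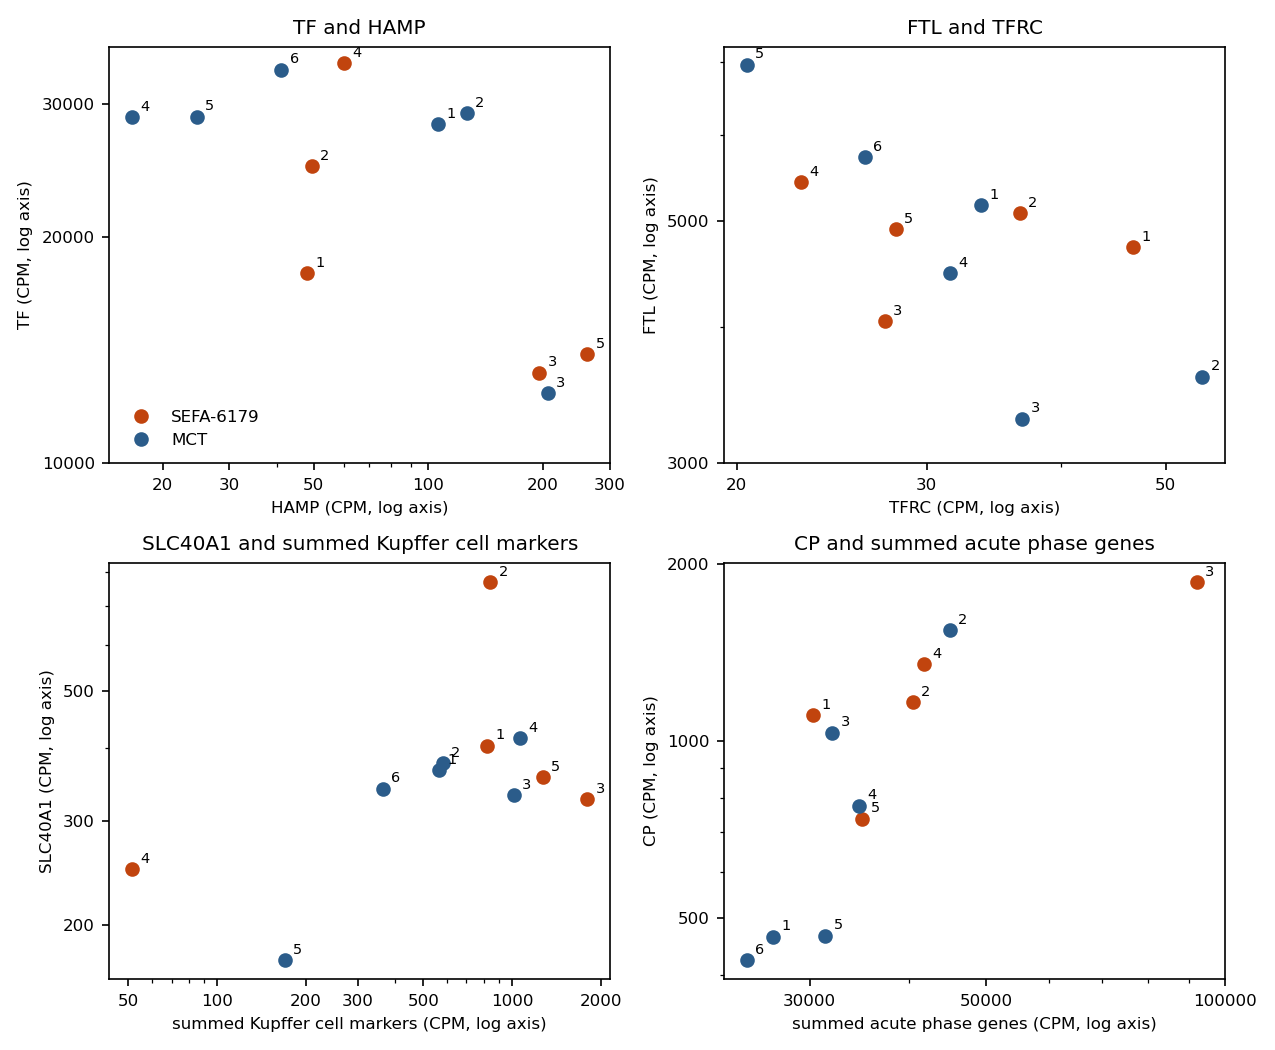
CPM of TF against HAMP, FTL against TFRC, SLC40A1 against summed Kupffer cell markers, and CP against summed acute phase genes, on log axes, with SEFA-6179 in orange and MCT in blue. Each point is a library labelled by its replicate; the 3 livers highest in HAMP sit lowest in TF, and SLC40A1 is lowest where the macrophage sum is 51.4 and 169 CPM.

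BMP6, the ligand upstream of hepcidin, had r = 0.45 and rho = 0.55 with HAMP, and r = 0.32 without the pair that stood apart. Targets of the same BMP and SMAD signal were named for their role or after their values were seen. Among them ATOH8 had r = 0.55 with HAMP (rho = 0.44) and ID1 r = 0.50 (rho = 0.37). SMAD7 had r = 0.17 (rho = 0.04) and SMAD6 r = -0.02 (rho = 0.05). Among the 23 tested genes of hepcidin control, r with HAMP was largest in size for TMPRSS6 (r = -0.65, rho = -0.66) and NEO1 (r = 0.60, rho = 0.51). SOCS3, a target of STAT3, had r = 0.45 with HAMP. The non-member genes most like HAMP among 10009 genes with a symbol and a mean count of at least 50 were ZNF146 (r = 0.89), C18orf54 (r = 0.88) and ZNF330 (r = 0.88). For TFRC they were GPSM2 (r = 0.96), SBNO1 (r = 0.95) and GOT2 (r = 0.95). For BMP6 they were PEAR1 (r = 0.90), SNX24 (r = 0.89) and WDR47 (r = 0.89). Such values are the highest of many and over 11 livers. With the summed markers of liver endothelium BMP6 had r = 0.29 and rho = 0.39. With the total count of the library BMP6 had r = -0.51 and rho = -0.54.

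Other genes of iron, heme and copper handling showed no call either. The lists held 71 symbols, of which MFI2 and MELTF are names of the same gene. Of these symbols 66 were in the table and 62 were tested, and 0 rose and 0 fell by edgeR. An unadjusted p below 0.05 was found in 7 of the 62 (11.3%, against 10.8% of all tested genes). DESeq2 called 1 (1.61%, against 2.06%). Log2 fold changes were above 0 in 41 (66.1%, against 49.8%) and below 0 in 21. Without the pair of libraries that stood apart 39 of 63 tested lay above 0.

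Among 23 tested genes of hepcidin control, which include the hemojuvelin gene HJV, the protease gene TMPRSS6 and the BMP receptors, 12 lay above 0, with a median log2 fold change of 0.02. STAT3, the transcription factor of the interleukin 6 signal, had the smallest p (log2 fold change 0.55 ± 0.22 SE, edgeR adjusted p = 0.371). Its level was 336 ± 89.5 CPM in SEFA-6179 livers and 230 ± 66.5 CPM in MCT livers (SD). SMAD4, the shared partner of the BMP-activated SMADs, was at 20.3 ± 2.15 CPM in SEFA-6179 livers and 25.4 ± 4.22 CPM in MCT livers (log2 fold change -0.32 ± 0.14, adjusted p = 0.411). SOCS3 had the largest log2 fold change of the list, 0.91 ± 0.42, with an adjusted p of 0.466. HJV differed by 0.05 ± 0.26 and TMPRSS6, which cleaves hemojuvelin, by -0.22 ± 0.17.

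Of 12 tested genes of cellular iron traffic 7 lay above 0, with a median of 0.12. SLC39A14, a transporter of non-transferrin-bound iron into hepatocytes, was at 305 ± 110 CPM in SEFA-6179 livers and 200 ± 76.7 CPM in MCT livers (SD; log2 fold change 0.61 ± 0.27 SE, edgeR adjusted p = 0.426). PCBP2, an iron chaperone, was next by p at -0.18 ± 0.17 (adjusted p = 0.759). The 9 genes of iron sensing had a median of 0.01. Their smallest p were those of FBXL5, the ligase subunit that removes iron regulatory protein 2 (-0.19 ± 0.14, adjusted p = 0.680), and EPAS1, a hypoxia-inducible factor (0.17 ± 0.14, adjusted p = 0.690). ACO1 and IREB2, which encode the iron regulatory proteins, differed by 0.18 ± 0.18 and -0.17 ± 0.20.

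Each of the 12 tested genes of heme and hemoglobin handling lay above 0 on the log2 scale, where 49.8% of all tested genes did. The list's median was 0.36, against -0.002 over all tested genes, and 0.30 without the pair that stood apart. Most of its members clear, move or break down heme and hemoglobin, but ALAS1 (0.52 ± 0.41) and FECH (0.14 ± 0.16) encode the first and last enzymes of heme synthesis. None passed by edgeR. HMOX2, the constitutive heme oxygenase, had 92.8 to 115 CPM in SEFA-6179 livers and 67.5 to 91.0 CPM in MCT livers, so the groups did not overlap, as in 1.49% of tested genes. Its log2 fold change was 0.41 ± 0.12 (SE), with an adjusted p of 0.200 by edgeR and 0.0253 by DESeq2. HMOX2 overlaps the oppositely oriented CDIP1 (mean count 957) and NMRAL1 (552), and the counting's strand setting is unknown. HP, the gene of haptoglobin, which binds free hemoglobin, is also in the acute phase list; it was at 13150 ± 4730 CPM in SEFA-6179 livers and 8369 ± 2157 CPM in MCT livers (SD; log2 fold change 0.65 ± 0.27, adjusted p = 0.378). CD163 is the macrophage receptor for the haptoglobin and hemoglobin complex. Its level was 194 ± 159 CPM in SEFA-6179 livers and 121 ± 78.7 CPM in MCT livers (log2 fold change 0.67 ± 0.77, adjusted p = 0.805). In SEFA-6179 replicate 4, set apart by a marker sum that includes CD163, it was at 8.04 CPM. Without the pair that stood apart its log2 fold change was 0.78 ± 0.47 (adjusted p = 0.589).

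Ceruloplasmin needs copper. Of 6 tested genes of copper supply 5 lay above 0 (median 0.14), where 49.8% of all tested genes did. Without the pair that stood apart 4 of 6 did (median 0.12). ATOX1, the copper chaperone to the secretory pathway, was at 120 ± 39.9 CPM in SEFA-6179 livers and 69.8 ± 30.4 CPM in MCT livers (SD; log2 fold change 0.79 ± 0.30 SE, edgeR adjusted p = 0.335). COMMD1 was next by p, at 0.35 ± 0.25 (adjusted p = 0.659). ATOX1 overlaps the oppositely oriented G3BP1. ATP7B, the pump that loads copper into ceruloplasmin, differed by 0.13 ± 0.24.

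**Figure D5:**
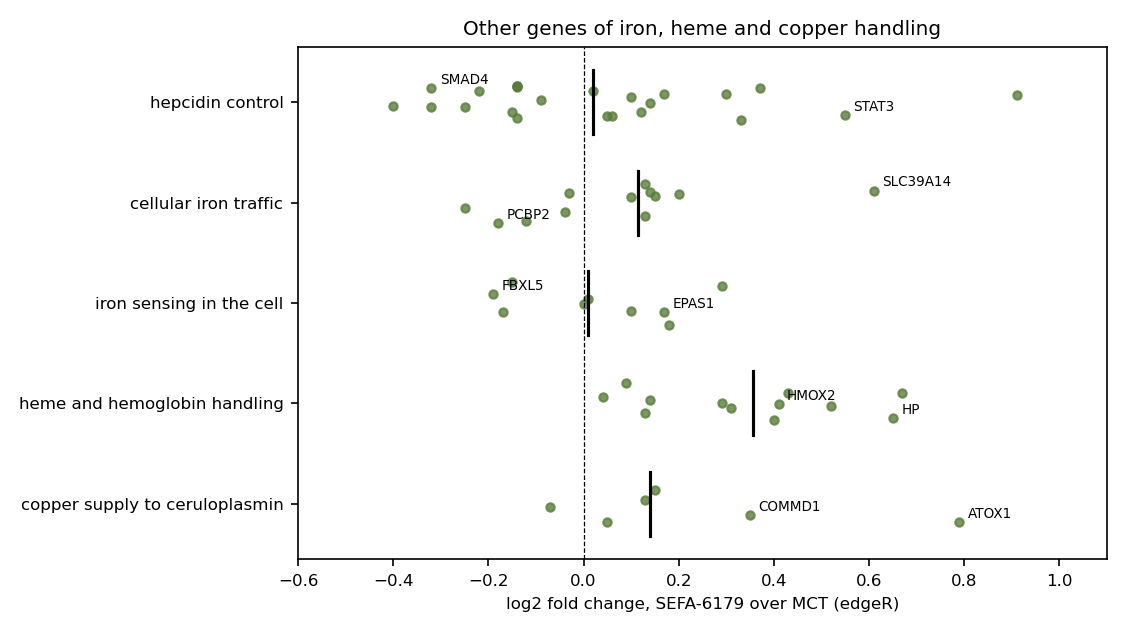
Log2 fold change, SEFA-6179 over MCT, of 62 tested genes in 5 lists of iron, heme and copper handling, from edgeR. Each point is a gene, black bars are list medians, and the 2 genes with the smallest p per list are named; all 12 points of heme and hemoglobin handling lie above 0.

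Markers of the cells that make or sense these proteins were compared with the same fit. None passed by edgeR. The counts of markers above 0 stand against 49.8% of all tested genes. Of 8 tested endothelial markers, genes of the cells that release BMP6, 7 lay above 0 with a median of 0.37, led by CDH5 (0.36 ± 0.16, adjusted p = 0.426) and LYVE1 (0.43 ± 0.19, adjusted p = 0.432). Their summed level was 425 to 883 CPM in SEFA-6179 livers and 379 to 764 CPM in MCT livers. For Kupffer cells and macrophages 7 of 8 markers lay above 0 (median 0.34), with the smallest p in C1QA (0.86 ± 0.71, adjusted p = 0.717) and MARCO (-0.48 ± 0.53, adjusted p = 0.797). Without the pair that stood apart 7 of 8 lay above 0 (median 0.48). SEFA-6179 replicate 4 was set apart by its low sum of these same markers, so that count is no independent check. For hepatocytes 6 of 9 did (median 0.10), led by TAT (1.07 ± 0.48, adjusted p = 0.435) and AHSG (-0.61 ± 0.35, adjusted p = 0.548); ALB differed by 0.25 ± 0.34. Stellate cell and cholangiocyte markers lay below 0 in 7 of 7 and 6 of 6 tested cases, with medians of -0.15 and -1.13. Without the pair that stood apart 2 of the 7 stellate cell markers lay above 0. Their summed levels were 493 to 807 and 35.0 to 72.0 CPM in SEFA-6179 livers, against 702 to 975 and 44.5 to 133 CPM in MCT livers. In these lists COL1A2 (-0.69 ± 0.21, adjusted p = 0.225), COL3A1 (-0.41 ± 0.16, 0.355), CD24 (-1.31 ± 0.25, 0.0539) and SOX9 (-1.60 ± 0.41, 0.148) had the smallest p. DESeq2 called CD24, SOX9 and EPCAM, 3 of the 6 cholangiocyte markers, where it called 2.06% of all genes, and 0 markers of the other lists.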

How the data were processed

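Liver RNA libraries of 5 SEFA-6179 and 6 MCT piglets were grouped by their labels, with each library taken as 1 animal. The labels do not say whether libraries of a group came from separate litters, so p-values measure the spread between these samples. The authors deposited 1 table with, per the file headers, a raw read count per gene and library and an FPKM value. A further deposited signal is, per library, that count over a constant. The authors' log2 fold change, p-value and adjusted p-value are in the same table. The submitters' processing notes name DESeq2 1.20.0, featureCounts 1.5.0-p3, StringTie 1.3.3b and HISAT2 2.0.5 with no role. The sources used here do not give the genome build, annotation release or strand setting, and coordinates are those of the table.

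The deposited counts entered edgeR 4.0.16 (R 4.3.3): filterByExpr with a minimum count of 10 (13671 genes kept), TMM scaling, robust quasi-likelihood test, two-sided, Benjamini-Hochberg adjustment over all kept genes. Levels are CPM after TMM scaling. Standard errors are the size of the fold change over the root of F, and 95% intervals use the test's degrees of freedom. Log2 CPM used a prior count of 2. The fit was tested on simulated counts. It recovered 42 of 100 genes with a log2 change of 1 and 88 of 100 with a change of 2. A gene that was not called may therefore still differ. The lowest count of a member in a library was 351. DESeq2 1.42.0 and limma 3.58.1 were alternatives. Members, lists, naming rules and alternatives were chosen with earlier results of these data known. Named genes are all members, per list those past the threshold or the 2 with the smallest p, and the 3 genes most like HAMP, TFRC and BMP6. Others (SOCS3, ID1, SMAD7, SMAD6, ATOH8, HJV, NEO1, CPS1, ALAS1, FECH, EPCAM, TMPRSS6, ACO1, IREB2, CD163, ATP7B, HBB, ALAS2, AHSP and those named as overlapping, listed or at 0) were added for their role or after their values were seen. Symbols missing from the table were taken by gene identifier for 779 genes and by the accession in the table's description for 117. No sequences are shown, since no sequence table was used here.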

Additional observations from a re-analysis of the deposited data

Results flagged for a closer look

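In 3 of 20 groups of libraries (10 genes, 2 groups each) 1 library lay far from the rest of its group, where chance flags about 1. All 3 are MCT libraries. TF was at 12392 CPM in MCT replicate 3, against at least 28184 CPM in the other 5 MCT libraries. The SLC40A1 level in MCT replicate 5 was 174 CPM, against at least 333 CPM. The FTH1 row was at 4714 CPM in MCT replicate 5, against at most 3062 CPM. MCT replicate 5 is also the library that stood apart on the first principal component.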

How the results depend on the processing

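No member passed in any of the 21 alternative fits. With EIF1AY in the model BMP6 was -0.06. The number of genes called over the whole table, 30, was 276 by the DESeq2 Wald test, 62 by limma with library quality weights, 8 with a replicate block over replicates 1 to 5, 1 without the pair of libraries that stood apart (SEFA-6179 replicate 4 and MCT replicate 5) and 6 with EIF1AY, a Y-linked gene, in the model. With 1 library left out it ran from 0, without SEFA-6179 replicate 5 or MCT replicate 4, to 53, without SEFA-6179 replicate 3. Among the other iron, heme and copper genes the number called was 1 by DESeq2, HMOX2. Same-numbered libraries did not deviate together (r from -0.149 to 0.202 over 5 pairs). Of 5 SEFA-6179 libraries 1 correlated best with its own number. Such values cannot exclude a weak pairing, on which the labels say nothing. The block changed no call of a member.

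The sign of 3 genes near 0 turned in some fits. FTL was 0.10 by limma, 0.09 with the replicate block and 0.08 without the pair, and with 1 library left out ran from -0.10 to 0.12. The FTH1 row was 0.08, 0.0045 and 0.14 in the same fits, and -0.09 to 0.13 with 1 library left out. TFRC ran from -0.24 to 0.12 with 1 library left out. The other 7 members kept their sign in all 21 fits. The order of the median levels per length was the same with TMM-scaled counts. Both scales use the same counts and gene lengths, so the order within a library could not change. It is therefore no check of that order. The cause of these shifts was not tested. The interval was widest for HAMP. Correlations without the pair of libraries that stood apart were added after seeing the data.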
